A study of Mus musculus with 8 samples.

Results

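The mouse gasdermin and inflammatory caspase genes described here are Gsdma, Gsdmc, Gsdmc2, Gsdmc3, Gsdmc4, Gsdmd, Casp1 and Casp4, 8 of the 55335 genes listed in the expression tables. They were found by symbol, and each matched 1 row. The set was chosen by measured values of these libraries: Gsdmc2 was low where squamous keratinocyte genes were high. The levels of Gsdmc2, and of the near-identical genes beside it are therefore given as a description with no test. Of the 8 genes, 7 reached 1 FPKM or more in at least 2 libraries and entered the fit, and Gsdmc did not. FPKM counts fragments scaled for transcript length and library size, so levels of different genes can be set side by side.

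RNA came from prostate epithelium sorted as EpCAM+, CD24a+ and CD49f-low cells, in 8 libraries that fall into 4 groups of 2 (replicates A and B). All mice shared 1 prostate genotype, that of the PP group, and PPK mice carried Kmt2cPC-/- as well, while PP mice did not. Kmt2c encodes a histone methyltransferase that marks enhancers. The groups were PPK ADT and PP ADT at 6.5 months of age, and PPK sham and PP sham at 3.5 months. ADT, the usual abbreviation of androgen deprivation therapy, thus went with an age 3 months higher, and the effects of treatment and age cannot be told apart. The labels name neither the promoter that drives the deletion nor the way ADT was done, and they do not say whether A and B are separate animals. The p-values then measure only the spread between these samples, which may be technical. As a check of the labels, Kmt2c had 6.60 and 6.36 FPKM in PPK ADT, 10.3 and 9.33 in PP ADT, 8.67 and 8.15 in PPK sham and 13.3 and 13.9 in PP sham, lower in PPK than in PP at each age but not absent.

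Gasdermins are pore-forming proteins. A protease cuts the linker between the pore-forming domain and the domain that restrains it, and the freed part opens the plasma membrane, lets interleukin-1 beta and interleukin-18 out and can kill the cell by pyroptosis. Gsdmd is cut by caspase-1, which inflammasomes activate, and by caspase-11, the product of mouse Casp4, which binds bacterial lipopolysaccharide in the cytosol. Gsdma is known from skin and upper gut epithelium. The Gsdmc genes are a group of tandem copies in the mouse, where human has 1 gene, and are known from intestinal epithelium.

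The Gsdmc genes lay side by side on the minus strand of chromosome 15 in GRCm38, within 136 kb: Gsdmc at chr15:63775968-63808759, Gsdmc2 at chr15:63824346-63845177, Gsdmc3 at chr15:63857724-63878558 and Gsdmc4 at chr15:63891264-63912297. Gsdmd lay farther along the same chromosome (chr15:75862327-75867408, plus strand), Gsdma at chr11:98664351-98677708 (plus strand), and Casp1 and Casp4 next to each other at chr9:5298517-5307265 and chr9:5308828-5336783 (plus strand). No member overlapped another annotated gene. The coding sequences of Gsdmc2 and Gsdmc3 were 97.1% identical, with 42 mismatches over 1440 bases. Gsdmc4 was 93.8% identical to each of them, and Gsdmc 87.0 to 87.5% identical to the others. Of all 50-base stretches of the transcript, 47.7% in Gsdmc2, 46.9% in Gsdmc3, 39.0% in Gsdmc4 and 16.4% in Gsdmc were also present elsewhere in the family. They were found letter for letter in another Gsdmc gene or in an annotated Gsdmc pseudogene. Of 100-base stretches, 24.8% were shared in Gsdmc2 and 30.5% in Gsdmc3. Reads from such stretches cannot be given to 1 gene, so each gene's own level is uncertain. The sum of the Gsdmc genes is less so, apart from reads shared with the pseudogenes. Gsdma was 90.9% identical to Gsdma2 and 89.8% to Gsdma3 over the coding sequence, with 8.26% of its 50-base stretches shared. Casp1, Casp4 and Casp12 shared no stretch of 50 bases.

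The 60 coding bases in which the 3 expressed copies differ most are shown because reads from them can be told apart. The windows lie in exon 8 of Gsdmc2 (chr15:63826868-63826927), exon 9 of Gsdmc3 (chr15:63860298-63860357) and exon 9 of Gsdmc4 (chr15:63893815-63893874) of GRCm38. They are read 5′ to 3′ on the minus strand, and capitals mark the 15 positions at which the copies are not all the same.
Gsdmc2: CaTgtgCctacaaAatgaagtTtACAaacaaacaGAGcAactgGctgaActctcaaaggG
Gsdmc3: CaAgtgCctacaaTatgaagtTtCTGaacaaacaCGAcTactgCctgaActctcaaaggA
Gsdmc4: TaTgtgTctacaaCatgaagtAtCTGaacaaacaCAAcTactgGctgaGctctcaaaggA
Over their whole aligned coding length the 3 copies varied at 113 columns, and the longest run without a difference was 171 bases, so reads shorter than this can fall where no letter tells the copies apart.

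Gsdmc2, Gsdmc3 and Gsdmc4 were abundant in PP ADT, PPK sham and PP sham and low in PPK ADT. Gsdmc2 had 15.3 and 15.1 FPKM in PPK ADT, 173 and 177 in PP ADT, 129 and 128 in PPK sham and 131 and 129 in PP sham. The level in PPK ADT was 11.5-fold lower than in PP ADT and 8.44-fold lower than in PPK sham, and neither pair of groups overlapped. PP ADT stood highest, 1.35-fold above PP sham, and in sham mice the PPK and PP libraries overlapped, with a ratio of means of 0.991. By FPKM, Gsdmc2 ranked 2888 and 2902 among all genes in PPK ADT, against 176 and 172 in PP ADT. Gsdmc3 had 7.59 and 8.42 FPKM in PPK ADT, 127 and 126 in PP ADT, 141 and 142 in PPK sham and 116 and 114 in PP sham. PPK ADT stood 15.8-fold below PP ADT and 17.6-fold below PPK sham. Its order differed from that of Gsdmc2, with PPK sham highest, and no groups overlapped. Gsdmc4 had 2.25 and 2.36 FPKM in PPK ADT, 24.6 and 24.8 in PP ADT, 47.3 and 48.3 in PPK sham and 36.8 and 37.1 in PP sham. PPK ADT stood 10.7-fold below PP ADT, and PP ADT 1.49-fold below PP sham, where Gsdmc2 and Gsdmc3 were higher. Gsdmc, the remaining copy, had 0.334 and 0.0436 FPKM in PPK ADT, was listed at 0 and 0.208 in PP ADT and at 0 in both PPK sham libraries, and had 0.0161 and 0.185 in PP sham. These levels are too low for an order of the groups to be read.

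**Figure D1:**
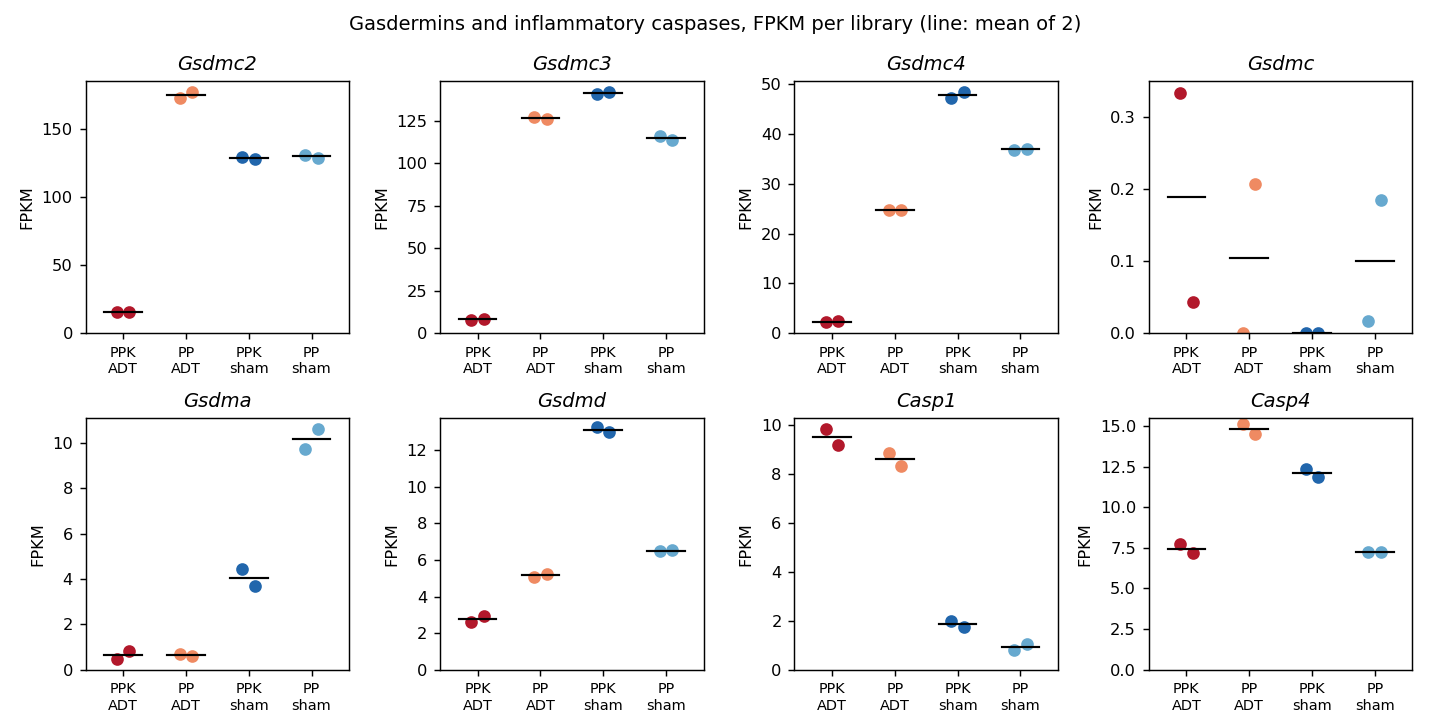
FPKM (y axis, linear, from 0, its own scale in each panel) of the 8 genes in the 4 groups (x axis). Points are the 2 libraries of a group and lines their mean. Gsdmc2, Gsdmc3 and Gsdmc4 are low in PPK ADT, Gsdma is low and Casp1 high in both ADT groups, Gsdmd is highest in PPK sham, and Casp4 is highest in PP ADT.

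On the log2(FPKM + 1) scale the PPK ADT against PP ADT difference was -3.44 ± 0.028 (SE, n = 2 each) for Gsdmc2, -3.83 ± 0.046 for Gsdmc3 and -2.96 ± 0.039 for Gsdmc4. Of the 14000 genes in the fit, 34 had a lower difference than Gsdmc2, 17 a lower one than Gsdmc3 and 71 a lower one than Gsdmc4. The set was chosen by the low Gsdmc2 values, and its copies share reads, so these ranks are a description and not a test. Summed over the 4 Gsdmc genes, the level was 25.5 and 26.0 FPKM in PPK ADT, 324 and 328 in PP ADT, 317 and 318 in PPK sham and 284 and 279 in PP sham. The sum depends less on how shared reads were divided among the copies, and it too was lowest in PPK ADT. The share of the sum that came from Gsdmc2 was 60.1 and 58.3% in PPK ADT, 53.2 and 54.0% in PP ADT, 40.7 and 40.2% in PPK sham and 46.2 and 46.0% in PP sham. It was higher in both ADT groups than in both sham groups, with no overlap. The share from Gsdmc4 was lower in both ADT groups than in both sham groups, at 8.85 and 9.09% in PPK ADT, 7.60 and 7.55% in PP ADT, 14.9 and 15.2% in PPK sham and 12.9 and 13.3% in PP sham. These shares do depend on how the reads were divided.

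**Figure D2:**
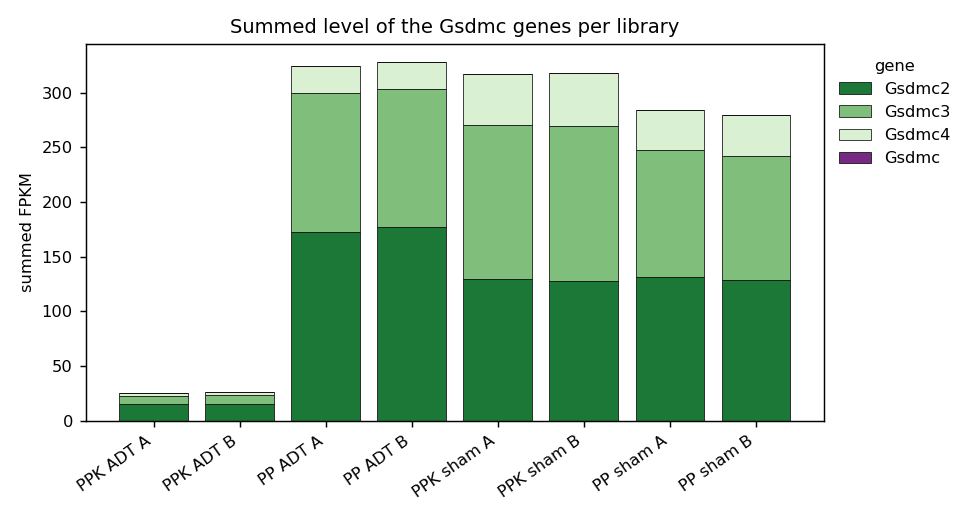
Summed FPKM of the Gsdmc genes (y axis) in each of the 8 libraries (x axis), with each bar split by gene. The sum is 25.5 and 26.0 FPKM in PPK ADT and 279 to 328 FPKM in the other 6 libraries, and the Gsdmc part is too thin to see.

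Gsdmcl2, an annotated transcribed pseudogene within the cluster, was also lowest in PPK ADT, and it too can share reads with the others. It had 0.0364 and 0.151 FPKM in PPK ADT, 1.505 and 1.91 in PP ADT, 3.22 and 2.29 in PPK sham and 1.97 and 1.81 in PP sham. The nearest protein-coding genes in the fit were examined on either side of the cluster. Fam49b, 16.8 kb after it on the chromosome, averaged 3.001 FPKM in PPK ADT, 4.36 in PP ADT, 4.48 in PPK sham and 3.67 in PP sham. Myc, 1786 kb before it and the next protein-coding gene in the fit on that side, averaged 53.6 FPKM in PPK ADT, 22.7 in PP ADT, 24.3 in PPK sham and 22.9 in PP sham. The low level in PPK ADT was thus seen in Gsdmc2, Gsdmc3, Gsdmc4 and Gsdmcl2 and, to a far lesser extent, in Fam49b, while Myc was higher there. Gsdmc was too low in every group to be placed.

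The squamous genes that Gsdmc2 was chosen against were set beside it without a test. Krt5, a keratin of basal and squamous epithelium, had 3242 and 3243 FPKM in PPK ADT and 94.3 and 96.8 in PP ADT, and Krt10, a suprabasal keratin, had 1222 and 1228 FPKM in PPK ADT and 7.57 and 7.95 in PP ADT. Summed over 12 squamous genes, the level was 6970 and 7045 FPKM in PPK ADT, 582 and 611 in PP ADT, 383 and 376 in PPK sham and 618 and 610 in PP sham. The squamous sum and the Gsdmc sum were thus at opposite extremes in PPK ADT, but not across the other groups: PPK sham had the lowest squamous sum and a Gsdmc sum between those of PP ADT and PP sham. Sprr1a, a cornified envelope gene, was already at 538 and 533 FPKM in PP sham, beside a Gsdmc2 level of 131 and 129. It averaged 422 FPKM in PP ADT and 307 in PPK sham, and so made up most of the squamous sum outside PPK ADT. The order of that sum among these groups is thus mostly that of Sprr1a.

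**Figure D3:**
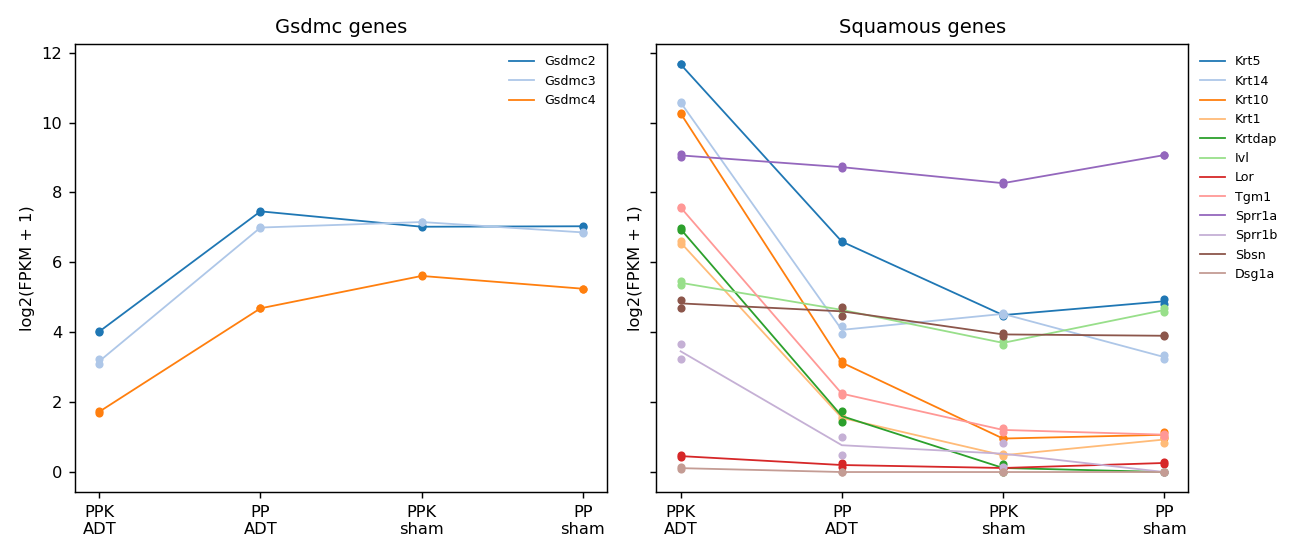
Levels as log2(FPKM + 1) (y axis) of Gsdmc2, Gsdmc3 and Gsdmc4 (left) and of the 12 squamous genes (right) in the 4 groups (x axis). Points are libraries and lines join group means. The Gsdmc genes are lowest and most squamous genes highest in PPK ADT, while Sprr1a is about as high in PP sham as in PPK ADT.

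The promoters of 3 of the 8 genes, Casp1, Casp4 and Gsdmc3, were in the RefSeq table for GRCm38.p6, and the 250 bases before each start were searched on both strands for 5 motifs. These were the core of the interferon-stimulated response element, the STAT motif TTCNNNGAA, the AP-1 motif TGANTCA, an NF-kB motif and the TATA motif TATANAA. No matches of different motifs overlapped in these windows. Among 32851 promoter windows of this length, 2.98%, 7.02%, 6.75%, 1.41% and 10.4% held them, in that order. The Gsdmc3 window (chr15:63878559-63878808, minus strand) is shown because Gsdmc3 had the largest difference of the set, with its 1 match, a TATA motif that begins 29 bases before the start, in capitals.
Gsdmc3 promoter: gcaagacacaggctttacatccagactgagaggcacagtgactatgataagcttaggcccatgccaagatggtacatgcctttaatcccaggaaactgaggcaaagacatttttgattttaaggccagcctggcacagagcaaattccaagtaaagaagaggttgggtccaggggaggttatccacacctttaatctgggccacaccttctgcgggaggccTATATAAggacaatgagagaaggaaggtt
Casp4 had windows for 2 RefSeq starts, and both held the same 2 NF-kB matches, which begin 93 and 14 bases before one start and 104 and 25 before the other, and the Casp1 window held none of the 5 motifs. A match is a description of letters and not a site of binding.

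Gsdma, the gasdermin known from skin, was low in both ADT groups and highest in PP sham. It had 0.473 and 0.812 FPKM in PPK ADT, 0.682 and 0.586 in PP ADT, 4.45 and 3.68 in PPK sham and 9.74 and 10.6 in PP sham. The ADT groups overlapped each other and lay below both sham groups, which did not overlap. In sham mice Gsdma was lower in PPK than in PP, with means of 4.06 ± 0.544 FPKM in PPK and 10.2 ± 0.608 FPKM in PP (SD, n = 2 each) and a log2 difference of -1.14 ± 0.13 (SE, limma adjusted p = 0.00109). In PP mice it was 16.0-fold lower with ADT and age, with means of 0.634 ± 0.0679 FPKM in PP ADT and 10.2 ± 0.608 FPKM in PP sham and a log2 difference of -2.77 ± 0.13 (limma adjusted p = 1.04e-05). In PPK ADT it was 6.32-fold lower than in PPK sham. Its level in ADT mice is under 1 FPKM in 4 of 4 libraries, so the log2 values understate the ratio. Gsdma thus met the level needed for the fit through the sham groups alone. Its call in PP ADT against PP sham follows in part from that filter. The closely related Gsdma2 and Gsdma3 were listed at 0 in 7 of 8 libraries, with 0.00996 and 0.118 FPKM in PP sham A. Gsdme, another gasdermin, had 0.145 to 0.670 FPKM over the 8 libraries. None of these 3 reached the level needed for the fit.

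Gsdmd, the pore-former cut by caspase-1 and caspase-11, was lowest in PPK ADT and highest in PPK sham. It had 2.62 and 2.92 FPKM in PPK ADT, 5.08 and 5.24 in PP ADT, 13.3 and 13.0 in PPK sham and 6.48 and 6.53 in PP sham. No groups overlapped, and the genotypes stood in opposite order in ADT and in sham mice. In sham mice Gsdmd was 2.02-fold higher in PPK than in PP, a log2 difference of 0.91 ± 0.063 (limma adjusted p = 0.00013). In PP mice it was lower with ADT and age, with means of 5.16 ± 0.117 FPKM in PP ADT and 6.50 ± 0.0367 FPKM in PP sham (SD, n = 2 each) and a log2 difference of -0.28 ± 0.063 (limma adjusted p = 0.0111). That small difference lost its call without PP ADT replicate A (limma adjusted p = 0.0555), without PP sham replicate B (0.0541) and when each library was scaled to the same total (0.0615). Without a test, Gsdmd was 4.74-fold lower in PPK ADT than in PPK sham, and 1.86-fold lower than in PP ADT.

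Casp1, the inflammasome caspase, was high in both ADT groups and low in both sham groups. It had 9.85 and 9.18 FPKM in PPK ADT, 8.87 and 8.34 in PP ADT, 1.997 and 1.76 in PPK sham and 0.806 and 1.04 in PP sham. The ADT libraries all lay above the sham libraries, and PPK was above PP within each. In PP mice Casp1 was 9.34-fold higher with ADT and age, a log2 difference of 2.32 ± 0.092 (limma adjusted p = 4.89e-06), and 69 of 14000 genes had a higher one. In sham mice it was 2.04-fold higher in PPK than in PP, a log2 difference of 0.58 ± 0.092 (limma adjusted p = 0.00435). In PPK mice it was 5.07-fold higher in ADT than in sham. Between PPK ADT and PP ADT it differed 1.11-fold, and the sign of that log2 value, 0.13 ± 0.092, turned to -0.071 when each library was scaled to the same total.

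Casp4, which encodes caspase-11, was highest in PP ADT. It had 7.73 and 7.17 FPKM in PPK ADT, 15.1 and 14.5 in PP ADT, 12.4 and 11.8 in PPK sham and 7.27 and 7.24 in PP sham. PPK ADT and PP sham overlapped, and the other groups did not. In sham mice Casp4 was 1.67-fold higher in PPK than in PP, a log2 difference of 0.67 ± 0.056 (limma adjusted p = 0.00031). In PP mice it was 2.04-fold higher with ADT and age, a log2 difference of 0.94 ± 0.056 (limma adjusted p = 3.07e-05). In PPK mice it was 1.63-fold lower in ADT than in sham, the opposite direction, and it was 1.99-fold lower in PPK ADT than in PP ADT. The neighbouring genes Casp1 and Casp4 were thus both higher in PPK sham and in PP ADT than in PP sham. They parted in PPK ADT, where against PPK sham Casp1 was higher and Casp4 lower, without a test. The ratio of Casp4 to Casp1 FPKM was 0.785 and 0.781 in PPK ADT, 1.70 and 1.74 in PP ADT, 6.19 and 6.75 in PPK sham and 9.02 and 6.98 in PP sham. Casp12, 8.65 kb beyond Casp4 and a caspase linked to the endoplasmic reticulum, had 3.46 and 3.82 FPKM in PPK ADT, 11.92 and 11.97 in PP ADT, 6.01 and 5.85 in PPK sham and 4.14 and 5.44 in PP sham. Like Casp4 it was highest in PP ADT, with a log2 difference of 1.17 ± 0.11 from PP sham (limma adjusted p = 0.000249).

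Of the 4 members tested in sham mice, 3 were higher and 1 lower in PPK, where 28.6% of all 14000 genes passed the test. With ADT and age in PP mice, 2 of the 4 were higher and 2 lower, where 44.2% of all genes passed. Of the 2 lower, Gsdma entered the fit through the sham groups alone. Both comparisons share the PP sham libraries.

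Other genes of these pathways, from lists chosen with earlier results of these data known, were tested in every comparison. Of 49 such genes 39 reached the level needed. In PPK ADT against PP ADT 5 rose and 25 fell (30 of 39), where 59.6% of all genes passed (32.5% higher and 27.1% lower). The median log2 difference over the 39 genes was -0.71, beside 0.05 over all genes. With every library scaled to the same total, all-gene medians shifted to -0.14 and the calls over all genes to 3355 higher and 5258 lower, while 5 pathway genes rose and 30 fell. In PPK sham against PP sham 16 rose and 4 fell (20 of 39), where 13.7% of all genes were called higher and 14.9% lower, with a median of 0.22 beside -0.02 over all genes. In PP ADT against PP sham 15 rose and 6 fell, where 19.1% were called higher and 25.1% lower, with a median of 0.07 beside -0.07. With every library scaled to the same total, this became 18 and 5 among pathway genes, and 3491 higher and 2517 lower over all genes. In PPK ADT against PPK sham 5 rose and 27 fell, where 62.6% of all genes passed (31.9% higher and 30.7% lower), with a median of -0.69 beside 0.00. With every library scaled to the same total, these became 4 and 28 among pathway genes, and 3660 higher and 5133 lower over all genes with a median of -0.12. The PPK against PP difference in ADT mice minus that in sham mice was called higher in 3 and lower in 24 of the 39, where 52.8% of all genes passed (30.0% higher and 22.8% lower). These are descriptions of the lists, and comparisons that hold the same libraries are not independent of each other. Casp14, Gbp5 and Aim2 reached 1 FPKM only in groups where they were high, so their places in these counts follow in part from the filter.

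**Figure D4:**
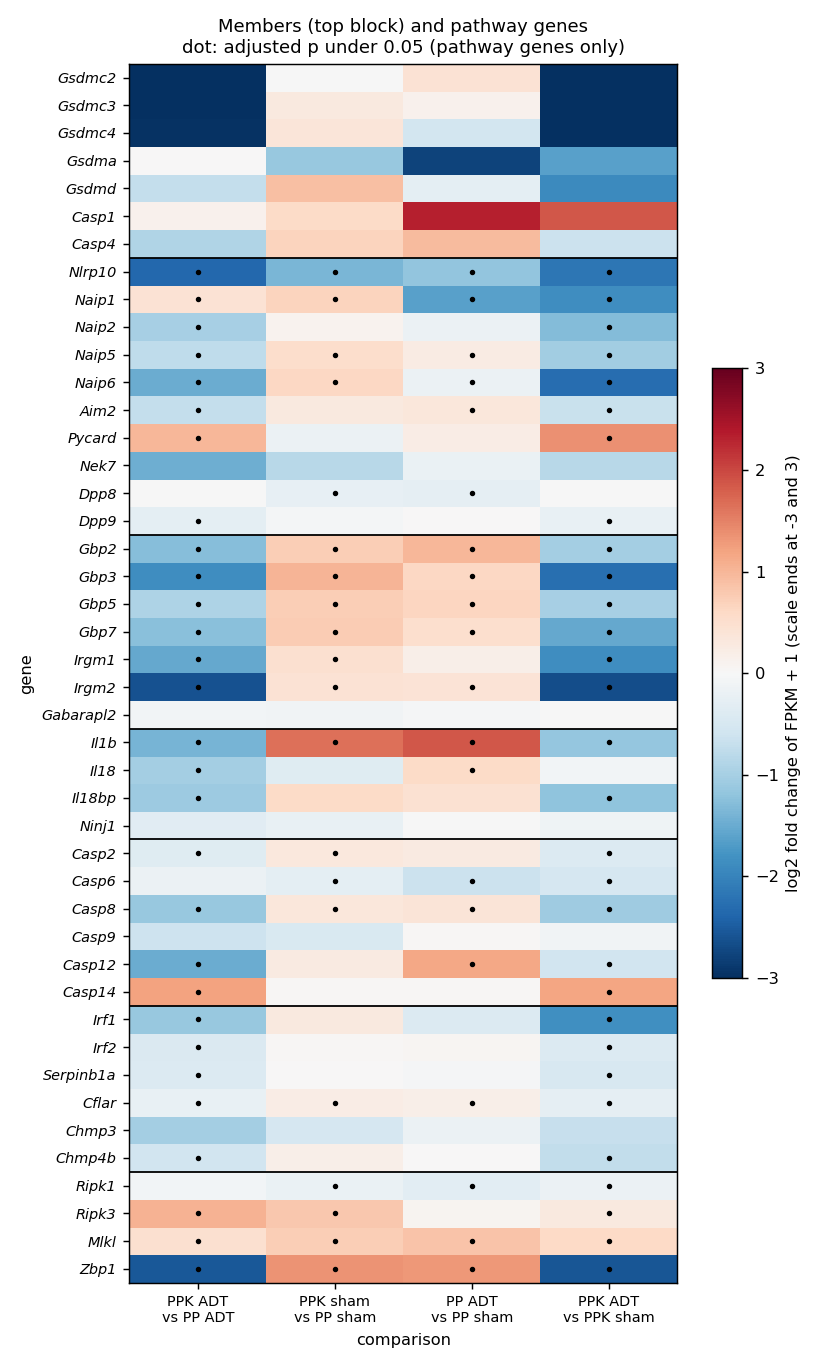
Log2 fold changes of FPKM + 1 (colour, cut at -3 and 3) of the 7 members in the fit (top block) and of tested pathway genes (rows) in 4 comparisons (columns). Dots mark pathway genes with a limma adjusted p under 0.05. Gsdmc2, Gsdmc3 and Gsdmc4 are dark blue in both comparisons that hold PPK ADT, as are Irgm2, Zbp1 and Nlrp10 to a lesser extent.

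Among inflammasome sensors and their adaptor, 10 of 16 genes were tested. Naip6, a receptor for bacterial flagellin, had 23.1 and 23.6 FPKM in PPK ADT, 66.7 and 67.4 in PP ADT, 117 and 117 in PPK sham and 77.4 and 75.0 in PP sham. It fell in PPK ADT against PP ADT by 1.48 ± 0.03 on the log2 scale (limma adjusted p = 1.53e-07) and rose in PPK sham against PP sham by 0.61 ± 0.03 (limma adjusted p = 3.48e-05). Naip5, also a flagellin receptor, did likewise, with log2 differences of -0.75 ± 0.046 in ADT and 0.53 ± 0.046 in sham mice (limma adjusted p = 1.64e-05 and 0.000333). Nlrp10, an NLR protein without leucine-rich repeats, was lower in PPK in both settings, with 7.54 and 7.41 FPKM in PPK ADT, 43.0 and 41.8 in PP ADT, 36.8 and 37.8 in PPK sham and 94.9 and 99.8 in PP sham. Its log2 difference was -2.35 ± 0.04 in ADT mice (limma adjusted p = 8.38e-08) and -1.36 ± 0.04 in sham mice (limma adjusted p = 5.8e-06). Pycard, the adaptor that joins sensors to caspase-1, had 8.50 and 9.29 FPKM in PPK ADT, 3.87 and 4.09 in PP ADT, 2.64 and 2.96 in PPK sham and 3.17 and 3.36 in PP sham. It rose in PPK ADT against PP ADT by 0.99 ± 0.079 (limma adjusted p = 6.18e-05) and, in sham mice, its difference of -0.17 ± 0.079 did not pass (limma adjusted p = 0.167). Naip1, which recognises the bacterial needle protein, fell with ADT and age, by 1.64 ± 0.098 in PP and 1.85 ± 0.098 in PPK mice on the log2 scale (limma adjusted p = 3.09e-05 and 7.68e-06). Nlrp3 had 0.036 to 0.759 FPKM and Nlrc4, the partner of the NAIP receptors, 0 to 0.935 FPKM, so neither was tested. Nek7, a partner of Nlrp3, had 4.66 and 18.7 FPKM in the PP ADT libraries and 5.37 and 22.1 in PP sham, a spread as wide as any difference between groups.

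The guanylate-binding proteins (GBP) are interferon-induced and belong to the platform on which caspase-11 meets lipopolysaccharide. They were listed with the immunity-related GTPases (IRG) Irgm1 and Irgm2 and with Gabarapl2, and most of the list passed the test. Since the list also holds a gene that restrains caspase-11, its counts have no single meaning for caspase-11 activity. Of 7 tested, 6 fell in PPK ADT against PP ADT, where 27.1% of all genes were called lower. Against PP sham, 6 rose in PPK sham and 5 in PP ADT, where 13.7% and 19.1% of all genes were called higher. In PPK ADT against PPK sham 6 fell, where 30.7% of all genes were called lower. The gene called in none of the 4 comparisons was Gabarapl2, an autophagy protein, at 18.5 to 20.1 FPKM. Gbp5 reached 1 FPKM only in PP ADT and PPK sham, where it was high, so its calls follow in part from the filter. Irgm2, which restrains caspase-11 in mouse macrophages, had 2.30 and 1.75 FPKM in PPK ADT, 17.4 and 17.3 in PP ADT, 17.9 and 18.0 in PPK sham and 12.7 and 13.1 in PP sham. Its log2 difference was -2.61 ± 0.086 in ADT mice (limma adjusted p = 1.04e-06) and 0.44 ± 0.086 in sham mice (limma adjusted p = 0.01). The rise in sham mice and the rise with ADT and age in PP lost their call without PP sham replicate A (limma adjusted p = 0.0574 and 0.0532). Gbp3 had 3.54 and 3.61 FPKM in PPK ADT, 14.6 and 16.7 in PP ADT, 20.1 and 21.9 in PPK sham and 9.67 and 10.02 in PP sham, with log2 differences of -1.86 ± 0.076 and 1.02 ± 0.076 (limma adjusted p = 2.65e-06 and 0.000186). Gbp2 and Irgm1 fell by 1.28 and 1.54 in PPK ADT against PP ADT and rose by 0.73 and 0.48 in PPK sham against PP sham on the log2 scale. In each of these genes PPK ADT was the lowest group, and the sham genotypes stood in the order seen for Gsdmd and Casp4.

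The cytokines that pass gasdermin pores were low in absolute terms. Il1b, which encodes interleukin-1 beta, had 2.28 and 2.09 FPKM in PPK ADT, 7.61 and 7.11 in PP ADT, 6.05 and 6.29 in PPK sham and 1.21 and 1.35 in PP sham. It fell in PPK ADT against PP ADT (log2 -1.39 ± 0.077, limma adjusted p = 1.06e-05), rose in PPK sham against PP sham (1.65 ± 0.077, limma adjusted p = 2.83e-05) and rose with ADT and age in PP (1.87 ± 0.077, limma adjusted p = 5.73e-06). As for Casp4, PP ADT was highest and PPK sham next, and here PPK ADT lay above PP sham without overlap. Il18 had 2.91 and 2.44 FPKM in PPK ADT, 7.36 and 5.51 in PP ADT, 2.69 and 3.11 in PPK sham and 3.83 and 4.14 in PP sham, and fell in PPK ADT against PP ADT by 1.01 ± 0.14 on the log2 scale (limma adjusted p = 0.000839). Il18bp, its soluble inhibitor, fell there by 1.10 ± 0.21 (limma adjusted p = 0.0039). Ninj1, which ruptures the membrane after pores have formed, had 4.75 to 8.40 FPKM and passed in none of the 4 pairwise comparisons (limma adjusted p from 0.171 to 0.988).

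Of 8 other caspases, Casp8, the initiator that can also cut Gsdmd, had 16.3 and 17.9 FPKM in PPK ADT, 38.5 and 38.8 in PP ADT, 37.7 and 36.0 in PPK sham and 28.8 and 29.4 in PP sham. It fell in PPK ADT against PP ADT by 1.13 ± 0.051 on the log2 scale (limma adjusted p = 4.26e-06) and rose in PPK sham against PP sham by 0.33 ± 0.051 (limma adjusted p = 0.00411). Casp12 fell in PPK ADT against PP ADT by 1.48 ± 0.11 (limma adjusted p = 4.33e-05). Casp14, a caspase of cornifying keratinocytes, had 1.36 and 1.36 FPKM in PPK ADT and at most 0.0711 in the other 6 libraries, and it met the level needed for the fit through PPK ADT alone, so its place among the genes counted as higher there follows from the filter.

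Regulators and the machinery that repairs gasdermin pores were mostly lower in PPK ADT. Of 6 genes 5 fell against PP ADT, where 27.1% of all genes were called lower. The 1 that rose in PPK sham against PP sham was Cflar, an inhibitor of caspase-8, at 9.77 and 9.82 FPKM in PPK sham and 8.32 and 8.15 in PP sham, and its call was lost when any 1 sham library was left out (limma adjusted p from 0.0591 to 0.0802). Chmp4b, a subunit of the ESCRT-III complex that sheds damaged membrane, had 87.9 and 85.1 FPKM in PPK ADT, 122 and 137 in PP ADT, 144 and 149 in PPK sham and 125 and 133 in PP sham (log2 -0.57 ± 0.06 in ADT mice, limma adjusted p = 0.000229). Irf2, a transcription factor needed for Gsdmd expression in mouse macrophages, fell there by 0.44 ± 0.085 (limma adjusted p = 0.00419), and Serpinb1a, an inhibitor of inflammatory caspase activation, by 0.42 ± 0.072 (limma adjusted p = 0.00253). Irf1 had 7.70 and 5.94 FPKM in PPK ADT against 11.5 and 22.5 in PP ADT, and its call in that comparison (limma adjusted p = 0.0105) was lost without PPK ADT replicate B (limma adjusted p = 0.0608). In necroptosis, the other lytic death pathway, the members parted. Zbp1, an interferon-induced sensor, had 4.46 and 5.43 FPKM in PPK ADT, 32.5 and 34.1 in PP ADT, 34.0 and 34.3 in PPK sham and 12.7 and 12.9 in PP sham. Ripk3, the kinase it activates, had 7.59 and 6.94 FPKM in PPK ADT, 2.73 and 3.33 in PP ADT, 6.01 and 5.40 in PPK sham and 2.83 and 2.82 in PP sham. Zbp1 fell in PPK ADT against PP ADT by 2.53 ± 0.078 on the log2 scale (limma adjusted p = 7.96e-07), while Ripk3 rose by 1.04 ± 0.097 (limma adjusted p = 0.000134) and Mlkl, the pore-former of necroptosis, by 0.48 ± 0.094 (limma adjusted p = 0.00462). In sham mice Zbp1, Ripk3 and Mlkl were higher in PPK than in PP, by 1.35, 0.81 and 0.73 on the log2 scale. Ripk1, the remaining necroptosis gene tested, was lower there, with a log2 difference of -0.20 ± 0.053 (limma adjusted p = 0.0368). It was also lower in PP ADT than in PP sham (-0.31 ± 0.053, limma adjusted p = 0.00403).

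Some of these genes are also expressed by macrophages, so markers of other cells were examined in the sorted libraries. Over 12 macrophage and monocyte markers the summed level was 54.4 and 53.3 FPKM in PPK ADT, 138 and 146 in PP ADT, 133 and 136 in PPK sham and 65.7 and 64.8 in PP sham. In this sum PP ADT and PPK sham thus lay above the other groups, as they did for Casp4, Il1b, Gbp3 and Irgm2. Not every marker had this order. Of these markers 5 to 7 reached 1 FPKM in a library, and most of the sum outside PPK ADT was Cd14, with 16.4 and 13.6 FPKM in PPK ADT, 96.2 and 101 in PP ADT, 89.4 and 91.5 in PPK sham and 41.3 and 41.7 in PP sham. Ptprc was near 0, at 0.0178 to 0.188 FPKM, as were Csf1r at 0.101 to 0.605 and Adgre1 at 0.0361 to 0.585. Other markers were not, with Cd68 at 10.9 to 21.4 FPKM, Lyz2 at 1.45 to 12.3, C1qa at 0.937 to 4.61 and C1qb at 1.22 to 5.02. By means, Cd14, C1qa, C1qb and Tyrobp had PP ADT and PPK sham above the other groups. Lyz2 was highest in PPK ADT, averaging 11.8 FPKM there, 7.56 in PP ADT, 7.59 in PPK sham and 1.73 in PP sham. Mrc1 was highest in PP sham, averaging 0.384 FPKM in PPK ADT, 2.94 in PP ADT, 4.32 in PPK sham and 7.51 in PP sham. Cd68 averaged 18.8 FPKM in PPK ADT and 18.5 in PP ADT. Of 7 markers tested, 6 were called higher and 1, Mrc1, lower in PPK sham against PP sham. The same counts held in PP ADT against PP sham, with Mrc1 again the lower one. Over all genes 13.7% and 19.1% were called higher there, and 14.9% and 25.1% lower. Over 8 neutrophil markers the sum was 12.8 and 12.6 FPKM in PPK ADT, 4.80 and 4.86 in PP ADT, 6.66 and 4.92 in PPK sham and 0.484 and 0.508 in PP sham. Outside PP sham it was mostly S100a9 and S100a8, which squamous epithelium also expresses. Elane was listed at 0 in every library, and no lymphocyte marker reached 1 FPKM. Fibroblast markers summed to 24.7 and 25.5 FPKM in PPK ADT, 4.503 and 4.35 in PP ADT, 14.9 and 13.9 in PPK sham and 4.85 and 5.17 in PP sham, and endothelial markers to 0.371 to 3.21. The 6 epithelial markers summed to 1906 and 1923 FPKM in PPK ADT and 3834 to 5239 in the other 6 libraries. The Gsdmc fall in PPK ADT thus went with a lower but far from absent epithelial sum, whose members did not move alike. Krt8 and Krt18 averaged 290 and 492 FPKM in PPK ADT against 1870 and 1638 in PP ADT. Epcam averaged 313 against 466 FPKM, Cdh1 467 against 706, Cd24a 319 against 512 and Itga6 34.1 against 33.4. Epcam and Cd24a encode proteins the cells were sorted for, and Itga6 encodes CD49f, for which low cells were kept. The presence of these genes thus follows in part from the sort and is no separate measure of epithelial content. In bulk RNA fewer cells of a type and less RNA per cell cannot be told apart. The part of these markers in the results was not tested.

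The genes whose pattern was most like that of each member are given by Pearson r of log2(FPKM + 1) over the 8 libraries, which form only 4 groups, among 7497 genes at 5 FPKM or more in their highest group. For Gsdmc2 these were Parm1, Myh14 and Arhgef38 (r = 0.999, 0.998 and 0.998). For Gsdmc3 they were Pigr, Lmo7 and Tnfrsf11a, and for Gsdmc4 Slc39a4, Gpd1 and Nfib (each r = 0.999). Pigr, the receptor that carries immunoglobulin A across mucosal epithelium, averaged 33.0 FPKM in PPK ADT, 1070 in PP ADT, 1450 in PPK sham and 1039 in PP sham. For Gsdma they were Piezo2, Pbsn and Msmb (each r = 0.997), of which Pbsn and Msmb encode androgen-dependent prostate secretions and were listed at 0 in both ADT groups. For Gsdmd they were Zdhhc13, B4galt1 and Trim25 (r = 0.996, 0.994 and 0.994), with 69 genes above 0.95. For Casp1 they were Sh3pxd2b, Inpp5f and Slc2a1 (r = 0.998, 0.998 and 0.996), and for Casp4 Ddx17, Cp and Eppk1 (r = 0.997, 0.996 and 0.996). The Gsdmc2, Gsdmc3 and Gsdmc4 patterns had 423, 498 and 510 genes above 0.95, in that order, against 75 for Casp4.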

How the data were processed

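RNA of sorted prostate epithelium was measured in 8 libraries, 2 in each of 4 groups, made strand-specific with a TruSeq kit per the labels. FPKM values were computed and deposited by the authors, with 1 table per library. FastQC 0.11.2 and mm10 stand in the submitters' processing notes. The aligner, quantifier and annotation, and how reads shared by near-identical genes were divided, are not stated there or in the labels. Of low values 18.8 to 22.6% lay within 0.02 of a whole multiple of the smallest step in their library (4% if spread evenly), so reads could not be recovered, depth is unknown, no count test was run and no counting interval is given. Summed FPKM ranged from 284015 to 333977.

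Tables were joined on 55335 Ensembl identifiers, of which 55154 matched a symbol in GENCODE M21 (GRCm38). Genes with 1 FPKM or more in at least 2 libraries (14000) were fitted as log2(FPKM + 1) with limma 3.58.1 in R 4.3.3, with 4 group means and a trend (4 residual and 2.40 prior degrees of freedom). Genes passed at a two-sided Benjamini-Hochberg adjusted p under 0.05 over all genes tested. The fit was run on simulated data with 200 genes changed in PPK ADT alone and independent noise. Far more genes passed in the real libraries, so that run does not give error rates for them. With 2 libraries against 2 an exact permutation test cannot go below 0.333, so none is given. Ratios are of mean FPKM, and ± is the SD of 2 libraries for FPKM and the SE for log2 values.

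The members and all lists were chosen with earlier results of these data known. No p is given for the Gsdmc genes, nor for any member in comparisons that hold PPK ADT, since those values chose the set. Named from each pathway list were up to 4 genes with the smallest adjusted p in a comparison where they passed, otherwise the 2 with the highest mean, with Gsdma2, Gsdma3, Gsdme and Casp14 always. Nlrp3, Nlrc4, Nek7, Irf1, Gsdmcl2 and the neighbouring genes, and the NF-kB and TATA motifs, were added after values or sequences were seen. Irgb10 was not matched by symbol. Some items are not reported here by name. Coding sequences came from GENCODE M21 and promoters from RefSeq for GRCm38.p6, and alignments used Biopython 1.88. Alternatives were pseudocount 0.1, no filter, median-of-ratios scaling, scaling to the same total (TPM), a replicate block, and each library left out.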

Additional observations from a re-analysis of the deposited data

Results flagged for a closer look

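In 27 of the 39 pathway genes the PPK against PP difference itself differed between ADT and sham mice, 3 higher and 24 lower, by a tested difference of the effects (ADT minus sham, log2, limma). Over all genes 52.8% passed this test. When each library was scaled to the same total, 29 did (2 higher and 27 lower), with 2818 higher and 4435 lower over all genes. Gbp5 and Aim2, counted among the lower genes, reached 1 FPKM only in PP ADT and PPK sham, so their calls follow in part from the filter. Of the 27, those that the naming rule picks are given. Among sensors the difference was -2.09 for Naip6, -1.29 for Naip5 and -0.99 for Nlrp10, and 1.16 for Pycard. Among GBP and IRG genes it was -3.05 for Irgm2, -2.88 for Gbp3 and -2.02 for both Irgm1 and Gbp2. Il1b stood at -3.04, Il18bp at -1.67 and Il18 at -0.65. The Il18 value lost its call without PPK ADT B, PP ADT A, PPK sham B, PP sham A or PP sham B (limma adjusted p up to 0.089), and with no filter on low genes (0.0688). Among caspases Casp12 stood at -1.75, Casp8 at -1.46. Casp14 stood at 1.16, but it entered the fit through PPK ADT alone, so that value and its place among the 3 higher genes follow from the filter. Among regulators Chmp4b stood at -0.75, Irf2 at -0.48, Cflar at -0.45 and Serpinb1a at -0.44. The Irf2 value lost its call without PPK ADT replicate B or PP ADT replicate B (limma adjusted p = 0.052 and 0.0507). Zbp1 had the lowest value of the pathway genes, -3.88 ± 0.11 (SE, limma adjusted p = 9.84e-07).

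For the members the difference was not tested, since the libraries that form it chose the set. Gsdmc3, Gsdmc4, Gsdmd and Casp4 were lower in PPK than in PP in ADT mice and higher in sham mice in every library, with a difference of the genotype effects (log2, ADT minus sham) of -4.12 for Gsdmc3, -3.32 for Gsdmc4, -1.62 for Gsdmd and -1.57 for Casp4. With ADT and age, Gsdmc2, Gsdmc3 and Casp4 were lower in PPK and higher in PP mice in every library, with a difference of the ADT effects (PPK minus PP) of -3.42, -4.12 and -1.57. All of these values share the same 8 libraries.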

How the results depend on the processing

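The count of pathway genes that passed stayed within 1.5 times its value under every alternative. It was 30 for PPK ADT against PP ADT (28 to 32 with 1 library left out, 30 to 35 under the others), 20 for PPK sham against PP sham (14 to 20, and 18 to 20), 21 for PP ADT against PP sham (17 to 22, and 21 to 24), 32 for PPK ADT against PPK sham (28 to 32, and 31 to 32) and 27 for the difference of effects (22 to 27, and 27 to 29). Where 1 library was left out, the lone library of its group was assumed to vary like the other groups. With the letters A and B as a replicate block the counts were 31, 18, 22, 31 and 27, in the same order. Libraries of different groups that carry 1 letter had deviations correlated by -0.008 to 0.057. A correlation over all genes cannot show whether single genes split by letter. Nek7 had 4.66 (A) and 18.7 (B) FPKM in PP ADT and 5.37 (A) and 22.1 (B) in PP sham. Chmp3 had 10.7 (A) and 23.1 (B) in PP ADT and 11.4 (A) and 27.6 (B) in PP sham. Whether the letters stand for anything shared was not tested. Of 455 recomputed member values 447 kept their sign, and of 2525 of other pathway genes 2464 did. The Casp1 difference between PPK ADT and PP ADT (0.13) turned to -0.071 when each library was scaled to the same total, and the Gabarapl2 difference of effects (0.02) to -0.23 (limma adjusted p = 0.0196, the lowest over the alternatives, which reach 0.944). The Casp9 difference between PPK ADT and PPK sham (-0.11) turned to 0.59 without PPK sham replicate A (limma adjusted p = 0.0348) and was -0.82 without replicate B, where the libraries had 4.21 (A) and 0.961 (B) FPKM. Except for this, the cause was not tested. Unknown depth limits what can be said of genes under 1 FPKM, Gsdmc among them.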
